A study of Arabidopsis thaliana with 6 samples.

Results

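The 10 genes described here are cold-regulated genes of Arabidopsis thaliana, of 27655 genes in the table. They were chosen by identifier: the transcription factor genes CBF2 (AT4G25470) and CBF3 (AT4G25480), and 8 COR (cold-regulated) genes. The COR genes are RD29A (AT5G52310), COR47 (AT1G20440), ERD10 (AT1G20450), KIN2 (AT5G15970), KIN1 (AT5G15960), COR15A (AT2G42540), COR15B (AT2G42530) and COR413-PM1 (AT2G15970). RNA was sequenced from whole Col-0 wild-type seedlings, 14 days old and grown on agar plates under long days, in 2 groups of 3 libraries. One group spent 1 h under distilled water and the other stayed in air for 1 h. The labels give neither the water temperature nor the light during that hour, and because RNA came from whole seedlings, fewer cells of a type and less RNA per cell cannot be told apart.

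CBF proteins (C-repeat binding factors, also called DREB1) are AP2-domain activators whose genes are switched on within minutes to hours of chilling. They bind the CRT/DRE element, with the core CCGAC, in the promoters of COR genes, whose products protect membranes and proteins against freezing and loss of water. Many COR genes also respond to drought, salt and abscisic acid through the ABRE element, with the core ACGTG. Upstream, the helix-loop-helix protein ICE1 and the calmodulin-binding CAMTA factors act on the CBF genes, CAMTA factors through a CGCGT core.

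Library totals were 20041244 to 29673924 counts in the submerged group and 20287275 to 25900177 counts in air. Levels are given as CPM (a gene's counts relative to its library's total after edgeR's TMM scaling) or, between genes, as the deposited TPM, which allows for transcript length. Each group mean has its SD and n = 3, each log2 fold change is submerged over air with its SE, and each adjusted p is from edgeR's quasi-likelihood test with Benjamini-Hochberg adjustment over 19495 genes unless another source is named. The labelled tissue showed both root and leaf transcripts in every library. For 19 root-preferred markers the summed level ran from 866 to 1241 CPM under water and from 1659 to 1954 CPM in air. Most of this sum came from PYK10, a root glucosidase gene, so it says little of the other markers. The 18 markers tested had a median log2 fold change of 0.26. The median deviation of the 19 from their means over all libraries was 0.25, 0.14 and -0.16 (log2) under water. In air it was 0.02, 0.41 and -0.89, a spread among the air libraries that the sums do not show. Among the other markers only CASP5 was at 0, in air replicates 1 and 3. Of 18 root markers tested, 1 rose (NRT2.1) and 1 fell (PYK10, -0.82 ± 0.11); without air replicate 2 these counts were 3 and 2, and the rise of NRT2.1 was lost in 7 of 13 alternatives, among them those without submerged replicate 1 or 3 or any 1 of the air libraries. For 7 leaf-preferred markers the sum was 15637 to 17618 CPM under water and 20632 to 21972 CPM in air. Of these 7, 5 fell, beside 26.1% of all genes tested called lower and 28.8% higher. The largest falls were those of LHCB2.1 (-1.17 ± 0.07), a light-harvesting protein gene, and PORB (-0.80 ± 0.05), a chlorophyll synthesis gene. The part of these shifts in the results below was not tested.

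Because CBF proteins and several of their relatives act at known short motifs, the 300 bases before the annotated start of 6 genes are shown first, 5′ to 3′ on the gene's own strand, from the TAIR10.1 assembly and its RefSeq annotation. Capitals mark matches, on either strand, to the CRT/DRE core CCGAC, the abscisic acid element core ACGTG, the CAMTA core CGCGT and the evening element AAAATATCT. RD29A (chr5:21240417-21240716, plus strand) is shown as the member with the largest rise among those tested, and its neighbour RD29B (AT5G52300, chr5:21236721-21237020, plus strand), which is no member, for contrast. COR15A (chr2:17712331-17712630, minus strand) and COR413-PM1 (chr2:6949551-6949850, plus strand) hold CRT/DRE cores. COR15A did not pass the test and COR413-PM1 fell. CBF2 (chr4:13016236-13016535, minus strand) and CBF3 (chr4:13019401-13019700, minus strand) are the factors.
RD29A: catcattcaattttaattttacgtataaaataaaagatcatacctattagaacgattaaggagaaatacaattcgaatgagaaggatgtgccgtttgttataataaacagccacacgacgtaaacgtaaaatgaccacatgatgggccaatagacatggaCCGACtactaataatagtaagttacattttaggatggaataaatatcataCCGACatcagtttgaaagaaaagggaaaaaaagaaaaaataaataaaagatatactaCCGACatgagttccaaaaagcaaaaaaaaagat
RD29B: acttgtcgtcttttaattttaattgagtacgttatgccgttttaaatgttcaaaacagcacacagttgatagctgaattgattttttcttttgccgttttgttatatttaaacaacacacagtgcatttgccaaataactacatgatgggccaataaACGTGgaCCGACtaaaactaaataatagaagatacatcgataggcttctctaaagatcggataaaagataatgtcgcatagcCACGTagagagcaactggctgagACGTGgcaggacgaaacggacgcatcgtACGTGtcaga
COR15A: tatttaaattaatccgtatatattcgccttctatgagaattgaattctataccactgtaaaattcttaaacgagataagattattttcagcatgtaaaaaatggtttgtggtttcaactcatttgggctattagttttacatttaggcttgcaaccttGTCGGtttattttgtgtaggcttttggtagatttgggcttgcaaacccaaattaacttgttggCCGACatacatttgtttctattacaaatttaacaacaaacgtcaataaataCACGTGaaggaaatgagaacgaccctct
COR413-PM1: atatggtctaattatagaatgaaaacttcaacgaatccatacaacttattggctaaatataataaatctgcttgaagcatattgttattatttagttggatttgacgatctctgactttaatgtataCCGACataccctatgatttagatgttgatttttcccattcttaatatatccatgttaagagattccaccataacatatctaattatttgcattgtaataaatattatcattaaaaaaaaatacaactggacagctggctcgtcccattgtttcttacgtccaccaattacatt
CBF2: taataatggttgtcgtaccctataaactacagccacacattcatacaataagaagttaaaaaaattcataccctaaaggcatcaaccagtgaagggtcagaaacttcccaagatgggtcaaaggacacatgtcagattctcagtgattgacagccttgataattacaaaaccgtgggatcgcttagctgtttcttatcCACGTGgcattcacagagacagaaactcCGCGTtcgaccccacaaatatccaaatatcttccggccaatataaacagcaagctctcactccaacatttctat
CBF3: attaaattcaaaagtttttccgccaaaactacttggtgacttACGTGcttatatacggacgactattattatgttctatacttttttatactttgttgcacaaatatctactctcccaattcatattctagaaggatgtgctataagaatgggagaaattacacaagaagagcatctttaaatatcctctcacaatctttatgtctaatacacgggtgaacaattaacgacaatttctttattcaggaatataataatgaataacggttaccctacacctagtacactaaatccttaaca

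After 1 h under water the members did not move as a block. Of the 8 that passed the filter on low counts, 5 rose (CBF2, RD29A, COR47, ERD10 and KIN2), 1 fell (COR413-PM1) and 2 did not pass the test (COR15A and COR15B). Among all genes tested, 55.0% were called, 28.8% higher and 26.1% lower, so a call as such is common in these data, while a rise of at least 4-fold was found in 3.46% of genes. All 5 risen members were past that size. The median log2 fold change of the 8 was 2.32, against 0.01 for all genes tested. Because the members were chosen with earlier results of these data known, these comparisons with all genes are descriptions and not tests. CBF3 and KIN1 were below the filter and are described by their counts.

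**Figure D1:**
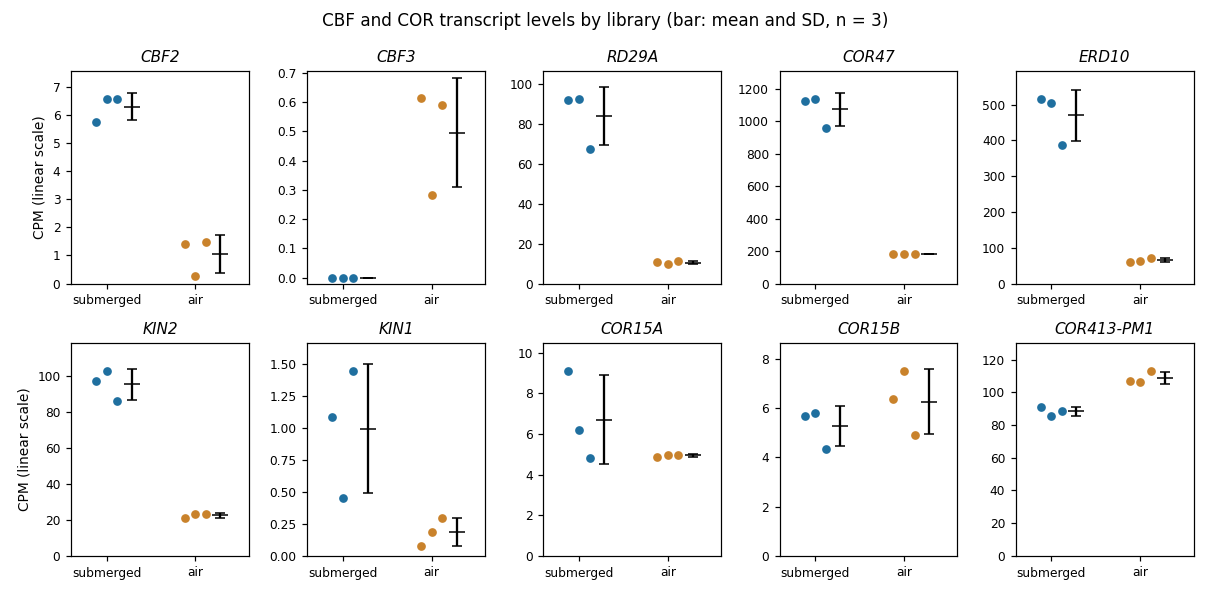
CPM of the 10 genes in each library on linear axes, with submerged libraries (blue) left of air libraries (orange) and black bars for the mean and SD of 3 libraries. The submerged libraries lie above all air libraries for CBF2, RD29A, COR47, ERD10, KIN2 and KIN1, below them for CBF3 and COR413-PM1, and overlap them for COR15A and COR15B.

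The 2 factor genes lay on opposite sides of their air levels. CBF2, which encodes one of the 3 main cold-induced activators, had 5.74, 6.58 and 6.56 CPM in the submerged libraries, against 1.42, 0.282 and 1.48 CPM in air. The groups did not overlap, and air replicate 2 was the low one, with 6 counts. The log2 fold change was 2.55 ± 0.37 (adjusted p = 6.73e-05), which is 5.85-fold, and it was 2.11 without air replicate 2 (adjusted p = 1.32e-05). CBF2 therefore reached 6.29 ± 0.479 CPM under water, against 1.06 ± 0.674 CPM in air.

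CBF3, the adjacent gene for a protein of closely similar function, had 0, 0 and 0 counts in the submerged libraries, against 16, 6 and 12 counts in air. All 3 submerged libraries were below all air libraries. Against a floor of 6 counts summed over the submerged group, and with the 34 counts in air taken as exact, CBF3 was at least 5.95-fold lower under water. Counting error in the air group would make this bound smaller. An exact two-sided permutation test on CPM gave p = 0.10, the smallest that 3 against 3 libraries allow. When the filter was left out, edgeR's test called CBF3 lower (adjusted p = 0.00179) in a fit that called 46.8% of 22967 genes. The authors' deposited table also has it lower, with a false discovery rate of 0.0165.

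CBF2, CBF3 and CBF1 (AT4G25490) lie in a row on chromosome 4, all on the minus strand, with 1774 bases between CBF2 and CBF3 and 2379 between CBF3 and CBF1. CBF1, the third of the cold-induced activators, had 8 counts under water and 8 in air, a ratio of 0.952 with a 95% counting interval of 0.177 to 5.11. DDF1, a gibberellin-related relative, had 14 and 2 counts, a ratio of 6.67 with an interval of 0.857 to 300, and 12 of the 14 lay in submerged replicate 1. CBF4, a drought-linked relative, had 2 counts under water and 0 in air, and DDF2 had none. At this depth CBF2 was thus the one member of the 6-gene DREB1 family that passed the filter. The CBF2 and CBF3 transcripts are 86.6% identical over aligned bases, and 37 of 937 windows of 50 bases in CBF2 also occur in CBF1 or CBF3. Reads from such stretches could be split between the copies, so their low counts carry that uncertainty.

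Among the COR genes, RD29A, whose hydrophilic product is of unknown action and whose promoter is the usual reporter of the pathway, rose the most. It had 92.4, 92.9 and 67.4 CPM in the submerged libraries, against 10.8, 9.59 and 11.2 CPM in air. The lowest submerged library, replicate 3, was still above every air library. The log2 fold change was 3.0 ± 0.12 (adjusted p = 5.62e-10), higher than in 98.5% of genes tested. RD29B, its neighbour 1185 bases away and a gene known for its response to abscisic acid, had 27, 14 and 22 counts under water, against 32, 30 and 34 counts in air. RD29B did not pass the test (-0.68 ± 0.37, adjusted p = 0.136); the difference between the 2 genes' responses was not tested.

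COR47 and ERD10, neighbouring genes for acidic dehydrins, which are disordered proteins that bind membranes and other proteins during dehydration, carried most of the gain in transcript level. COR47 had 1123, 1140 and 957 CPM in the submerged libraries, against 181, 182 and 181 CPM in air. Its air libraries were almost identical, and all submerged libraries were far above them. The log2 fold change was 2.57 ± 0.07 (adjusted p = 3.35e-11). ERD10 had 517, 505 and 386 CPM under water, against 61.5, 62.6 and 72.2 CPM in air, with no overlap. Its log2 fold change was 2.84 ± 0.11 (adjusted p = 2.75e-10), or 7.18-fold.

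KIN2, also called COR6.6, encodes a small alanine-rich hydrophilic protein. It had 97.4, 103 and 86.0 CPM in the submerged libraries, against 21.04, 23.1 and 23.4 CPM in air, and the groups were well apart. The log2 fold change was 2.09 ± 0.08 (adjusted p = 2.74e-10), or 4.25-fold. KIN1, a tandem copy 892 bases upstream of it, had 32, 10 and 28 counts under water, against 2, 4 and 6 counts in air. Every submerged library was above every air library, though on few reads. Its ratio was 5.56, with a 95% counting interval of 2.31 to 16.2, and the exact two-sided permutation test on CPM gave p = 0.10, the smallest possible. Without the filter edgeR's test called it higher (adjusted p = 0.00679), as did the authors' deposited table with a false discovery rate of 0.000768. The transcripts are 82.04% identical, and 10 windows of 50 bases are shared, of 780 in KIN1 and 701 in KIN2. KIN2 had 6821 counts under water and 1514 in air. If its reads were spread evenly, 97.3 and 21.6 of those counts would fall in the shared windows, more than the 70 and 12 counts of KIN1. Some or all of the KIN1 counts, and its ratio, could therefore be KIN2 reads. This depends on the read length and on how the authors' counting placed the reads, and KIN1 is uncertain.

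The chloroplast-targeted COR15 proteins stabilise membranes during freezing in Arabidopsis, and their genes did not pass the test. COR15A had 9.11, 6.22 and 4.80 CPM in the submerged libraries, against 4.88, 4.99 and 4.97 CPM in air. Submerged replicates 1 and 2 were above the air libraries and replicate 3 below them. The log2 fold change was 0.46 ± 0.22 (adjusted p = 0.0929); it passed without submerged replicate 3 (0.64, adjusted p = 0.0135) and stood at 0.17 without submerged replicate 1 (adjusted p = 0.520). COR15B had 5.71, 5.81 and 4.34 CPM under water, against 6.37, 7.52 and 4.92 CPM in air, and the groups overlapped. Its value was -0.24 ± 0.20 (adjusted p = 0.316). COR15B overlaps 468 bases of AT2G42520 on the opposite strand, and 27.3% of its windows of 50 bases also occur there; no source used here says whether the counting used strand, so its counts may include reads of that gene.

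COR413-PM1, a predicted multi-spanning plasma membrane protein gene, fell. It had 91.2, 85.5 and 88.7 CPM in the submerged libraries, against 107, 107 and 113 CPM in air. All submerged libraries were lower, by a small amount. The log2 fold change was -0.30 ± 0.06 (adjusted p = 0.000545), or 0.813-fold, beside 26.1% of all genes tested called lower. Its relative COR413PM2 (AT3G50830), of the same family, rose by 1.0 ± 0.05 (adjusted p = 6.85e-09). COR413PM2 was chosen after its value was seen. The relatives COR413IM1 (0.11 ± 0.16, adjusted p = 0.605) and COR413IM2 (-0.007 ± 0.07, adjusted p = 0.946) did not pass the test.

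The groups did not overlap in CPM for 8 of the 10 members, 6 higher and 2 lower, where 62.1% of all genes tested did not overlap. The 8 include CBF3 and KIN1, which were below the filter, so the 2 shares are over unlike sets of genes. Submerged replicate 3 had the lowest CPM of its group in 6 of the 9 members with any count under water. These were RD29A, COR47, ERD10, KIN2, COR15A and COR15B, and it lay below the mean of the other submerged libraries by 0.22 to 0.64 on the log2 scale. The same library had the lowest summed root-marker level under water (866 CPM, mostly PYK10) and the highest leaf-marker sum (17618 CPM). Whether these go with its lower COR levels was not tested. Without submerged replicate 3, the log2 fold changes of the 4 risen COR genes were still called, with values up to 3.14 for RD29A.

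The order of transcript levels changed with the treatment. Under water the highest deposited TPM was that of COR47 (760.3 ± 86.0), followed by ERD10 (475 ± 82.0), KIN2 (209 ± 22.7), COR413-PM1 (134 ± 5.38), RD29A (52.03 ± 9.95) and CBF2 (10.5 ± 0.694). Each of these was separated from the next by all 3 libraries. COR15A (6.98 ± 2.40) and COR15B (5.49 ± 0.952) overlapped, and KIN1 (1.96 ± 0.962) and CBF3, listed at 0, came last. In air COR413-PM1 was highest (164 ± 4.61), above COR47 (128 ± 2.93), ERD10 (65.99 ± 5.36) and KIN2 (49.2 ± 3.21). COR15B (6.50 ± 1.47) and RD29A (6.48 ± 0.401) did not differ beyond their spread, COR15A (5.11 ± 0.143) was just below RD29A, and CBF2 (1.75 ± 1.10) overlapped CBF3 (0.581 ± 0.209), which overlapped KIN1 (0.369 ± 0.213). RD29A thus stood above COR15A by far more under water than in air. The summed TPM of the 10 genes was 1655 ± 204 under water and 428 ± 12.2 in air, and COR47 with ERD10 made up 73.4% to 75.2% of it under water, against 45.2% to 45.4% in air.

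Within neighbouring gene pairs the balance was compared inside each library, where library size cancels. The 3 pairs were tested with exact two-sided permutation tests, whose smallest p is 0.10. The log2 ratio of COR47 to ERD10 counts was 1.12, 1.17 and 1.31 under water, against 1.55, 1.54 and 1.32 in air, with every submerged library below every air library. The shift was -0.27 (exact p = 0.10, adjusted over 3 pairs 0.15). The log2 ratio of COR15A to COR15B was 0.67, 0.10 and 0.15 under water, against -0.38, -0.59 and 0.01 in air, a shift of 0.62 (exact p = 0.10, adjusted 0.15). For KIN1 to KIN2 the groups overlapped, with a shift of 0.08 (exact p = 0.90) that changed sign with the pseudocount and when a library was left out.

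**Figure D2:**
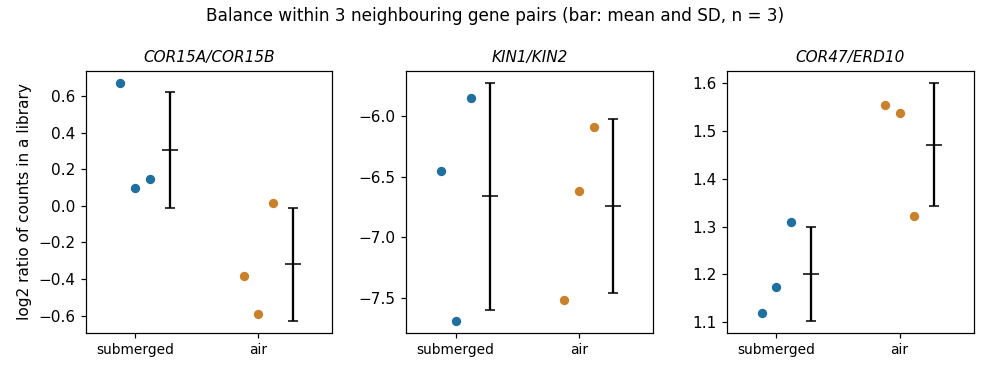
Log2 ratio of the counts of 2 neighbouring genes within each library, submerged (blue) left of air (orange), with black bars for the mean and SD of 3 libraries. The submerged libraries lie below all air libraries for COR47/ERD10 and above them for COR15A/COR15B, and overlap them for KIN1/KIN2.

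CRT/DRE cores lay before members that rose, fell and did not pass the test. Within 300 bases of the annotated start it occurred in 4 of 10 members, and in 13.9% of 27443 protein-coding promoters of that length. RD29A held 3 cores, COR15A 2, COR15B 1 and COR413-PM1 1. The annotated COR15A gene ends 7 bases upstream of COR15B, on the same strand. Nearly all of the bases searched before COR15B, with its core at 265 bases, therefore lie inside the COR15A gene. The counts given for both lengths include this core. Of the 5 risen members 1 held a core within 300 bases, as did the 1 that fell and both that did not pass the test. In 1000 bases 7 of 10 members held a core, against 37.4% of promoters, and these included COR47 with 1 and ERD10 with 2. The ACGTG core was found within 300 bases in 5 of 10 members (CBF2, CBF3, KIN1, KIN2 and COR15A), against 25.6% of promoters. A palindromic CACGTG counts as 2 overlapping matches of it, as in CBF2 and COR15A.

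The CGCGT core lay 74 bases before the start of CBF2 and in no other member within 300 bases, against 7.89% of promoters, and neither CBF3 nor CBF1 had a match in the same window. The evening element occurred in no member within 300 bases, against 2.79% of promoters, and in 3 members (CBF2, KIN1 and KIN2) within 1000 bases, against 7.24%. The annotated start is the outermost base of the gene model, so elements closer to another start site can lie outside these windows. Matches of letters are descriptions and not evidence of binding.

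**Figure D3:**
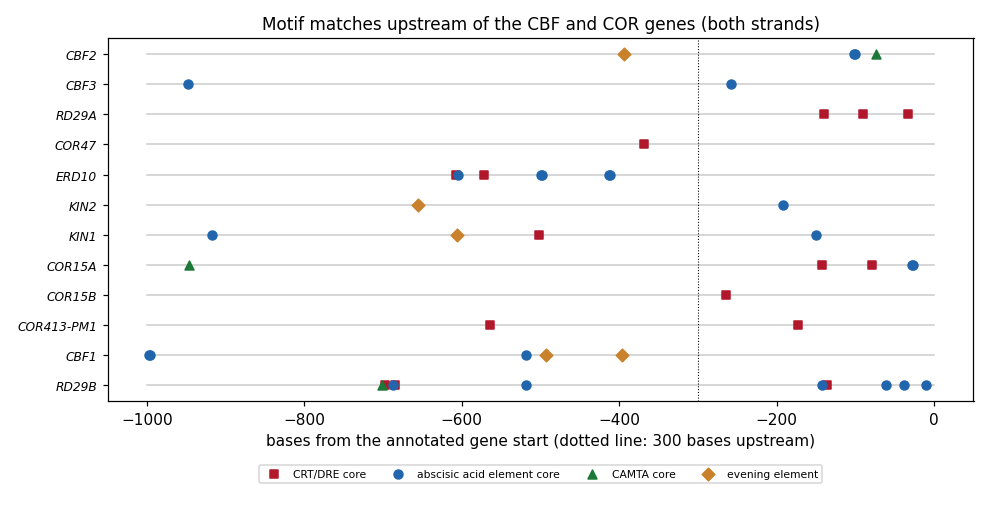
Matches to the 4 motifs in the 1000 bases before the annotated start of the 10 genes and of CBF1 and RD29B, as distance in bases on the horizontal axis. Red squares (CRT/DRE core) lie within 300 bases in RD29A, COR15A, COR15B, COR413-PM1 and RD29B, and the green triangle (CAMTA core) near the start is that of CBF2.

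Genes that act on CBF expression included some that rose and some that fell. Of 11 tested activators on the list, 6 rose and 3 fell, beside 28.8% of all genes tested called higher and 26.1% lower, so the share that fell is that of all genes. Their median was 0.40, beside 0.01 for all genes. ICE1 (AT3G26744) fell by 0.31 on the log2 scale (SE 0.08, adjusted p = 0.00705) and its homologue ICE2 by 0.63 (SE 0.08). The clock gene CCA1 also fell (-0.50 ± 0.12), while the clock gene LHY rose (0.60 ± 0.19, adjusted p = 0.0176). CAMTA3, a calmodulin-binding activator of CBF2, rose by 0.71 ± 0.08 and BZR1, a brassinosteroid-signalling factor, by 0.65 ± 0.08. Of 14 listed repressors 8 rose and 5 fell, with a median of 0.23. MYB15, a repressor of CBF genes, had 208 counts under water and 4 in air, a ratio of 49.5 with a 95% counting interval of 13.4 to 414. ZAT12, a zinc-finger gene, rose by 3.78 ± 0.19, while PIF4 (-1.64 ± 0.06) and the clock gene PRR9 (-0.87 ± 0.16) fell. Their relatives on the list did not all go that way. PIF3 (0.59 ± 0.10), PIF7 (1.13 ± 0.08) and PRR5 (1.54 ± 0.09) rose, and PRR7 did not pass the test (-0.12 ± 0.07).

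Transcription factors known to be induced early by cold in parallel with the CBF genes mostly rose. Of 11 tested, 10 rose, ZAT12 of the repressor list among them, and 1 fell, with a median of 2.49. Among all genes tested 28.8% were called higher and 26.1% lower, and this list was chosen with earlier results of these data known. ZAT10, a zinc-finger repressor, had 162 ± 19.2 CPM under water and 4.44 ± 2.03 CPM in air (5.18 ± 0.20), and ERF6, an ethylene response factor, rose by 3.79 ± 0.16. HSFC1, a heat shock factor gene, was the one that fell (-0.88 ± 0.16). Many of these genes also answer other stresses.

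Beyond the members, 20 other cold-regulated genes were tested, of which 8 rose, 2 fell and 10 did not pass, with a median of 0.32. The 10 called of 20 are no larger a share than the 55.0% called among all genes tested. LTI30, a cold-induced dehydrin, had 16.5 ± 3.90 CPM under water and 4.19 ± 1.47 CPM in air (1.99 ± 0.23), and COR27, a clock-linked regulator of freezing tolerance, rose by 1.82 ± 0.18. TIL, a temperature-induced lipocalin, fell (-0.42 ± 0.08), as did the beta-amylase gene BAM3 (-0.20 ± 0.07), whose call was lost without submerged replicate 2 (adjusted p = 0.124 at most over the alternatives), air replicate 1 or air replicate 3. Of 5 dehydrin genes tested besides COR47 and ERD10, 3 rose and 1 fell, beside 28.8% of all genes tested called higher and 26.1% lower. LTI30 is among the other cold-regulated genes too and RAB18 among the abscisic acid-responsive ones. AT4G38410 rose by 3.81 ± 0.30, and RAB18, a dehydrin known for its response to abscisic acid, fell to 25.4 ± 1.58 CPM under water, against 50.7 ± 3.24 CPM in air (-1.0 ± 0.07).

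Of 13 tested genes on a list of those known for their response to abscisic acid, 1 rose and 6 fell, with a median of -0.57. The 7 called are close to the 55.0% called among all genes, with 28.8% higher and 26.1% lower. No member is on this list, although many COR genes also respond to abscisic acid and RD29A, COR47, ERD10 and KIN2 rose. The counts therefore describe the listed genes and not all genes that respond to abscisic acid. RD22, a dehydration-responsive gene, fell by 1.76 on the log2 scale (SE 0.10), and HIS1-3, a stress-linked histone H1 gene, by 1.39 (SE 0.14). ABI1, a phosphatase that dampens abscisic acid signalling, was the one that rose (0.35 ± 0.06). The count of risen genes was 3 without submerged replicate 1 and 2 without any 1 of the air libraries.

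**Figure D4:**
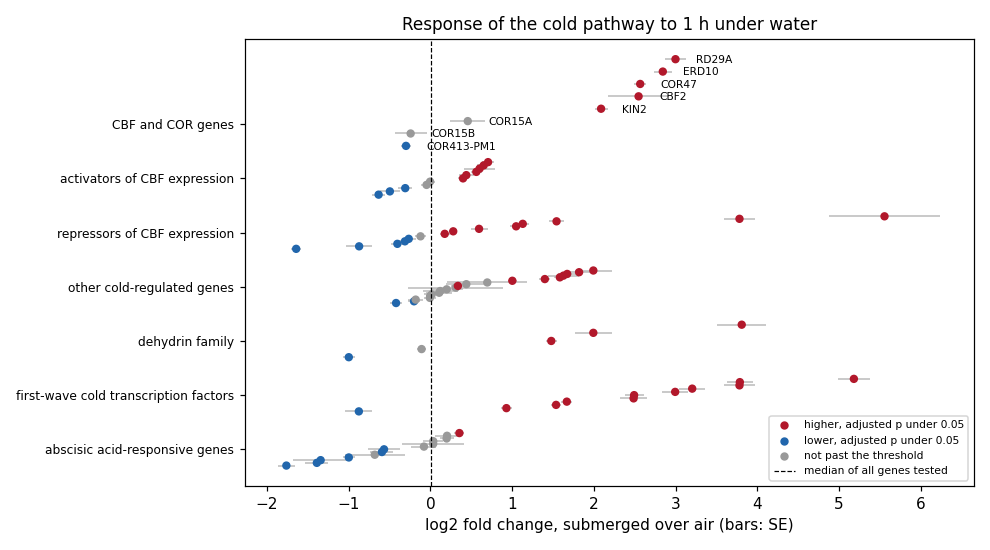
Log2 fold change, submerged over air, with SE bars for the 8 tested members (named) and for the other tested genes of 6 pathway lists; red and blue mark calls, grey genes that did not pass, and the dashed line is the median of all genes (0.01). RD29A, ERD10, COR47, CBF2 and KIN2 lie between 2.09 and 3.0, and 6 of the 13 abscisic acid-responsive genes are blue.

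Across the 6 libraries the genes most like RD29A and CBF2 were sought among 14900 other genes with a mean of at least 5 CPM, by Pearson's r of log2 CPM. With 2 groups this mostly reads the step between them, and 2902 genes had an r above 0.95 with RD29A and 440 with CBF2. Closest to RD29A were AT5G65470, listed as OFUT39 (r = 0.9998), AT2G35290, also known as SAUR79 (r = 0.9998), and FATB (r = 0.9998), with log2 fold changes of 1.68, 3.88 and 0.73. For CBF2 they were AT5G50530 (r = 0.9993), AT2G19270 (r = 0.998) and the nitrate transporter gene AT4G21680, NRT1.8 (r = 0.997), with log2 fold changes of 1.08, 0.37 and 3.50. The points of each correlation share their libraries and depth.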

How the data were processed

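Total RNA of whole seedlings was taken with Trizol, and a sequencing company built the libraries (per the labels' protocols). Per the submitters' processing notes the build was TAIR10; aligner, counter and strand setting are not stated. Per the file headers, the deposited tables hold whole-number counts and TPM for 27655 genes, and the authors' own comparison holds log2 fold changes and false discovery rates. The deposited TPM served for levels between genes only.

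The test was edgeR 4.0.16 (R 4.3.3) with TMM factors, filterByExpr (minimum count 10, total 15) and the quasi-likelihood F test. A call is an adjusted p below 0.05. The SE of a log2 fold change was derived from this test, as its absolute value over the square root of F. Alternatives were other scalings and filters, DESeq2 1.42.0, limma 3.58.1 voom, halved counts, a block for replicate number, and fits lacking 1 library. Of counts from 1 to 20, 85.8% to 87.4% were even in each library, so low counts were read as pairs: the floor is 6 counts (3 read pairs) per group, and ratio intervals are exact binomial 95% intervals on halved counts. Both cover counting error only, and the floor covers it in its own group alone. Pair ratios used counts plus 1.

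Sequences, positions and motif matches come from the TAIR10.1 FASTA and RefSeq annotation, joined by gene identifier (27445 matched), since the deposited tables hold no positions. Transcripts were aligned with Biopython 1.88. The text names all members, the other DREB1 genes, ICE1 and, from each list, up to 2 called genes with the largest rise and 2 with the largest fall. RD29B, COR413PM2, COR413IM1 and COR413IM2 were added as relatives. From the lists LHY, PIF3, PIF7, PRR5, PRR7 and CASP5 are also named, outside this rule. Members and lists were chosen with earlier results of these data known. The replicates are called biological in the design text, without saying whether cultures were separate, so p-values describe variation among these libraries, which may be technical.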

Additional observations from a re-analysis of the deposited data

How the results depend on the processing

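CBF2, RD29A, COR47, ERD10, KIN2 and COR413-PM1 kept their direction and call in all 15 alternatives, with log2 fold changes of 2.11 to 2.84, 2.88 to 3.14, 2.45 to 2.65, 2.72 to 2.97, 1.97 to 2.16 and -0.42 to -0.27. COR15B stayed uncalled (-0.39 to -0.10), and COR15A (0.17 to 0.64) was called without submerged replicate 3 only. Upper quartile scaling shifted the median of all genes by -0.12 and gave 39.6% of calls higher in place of 52.5%.

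The number of members called lower was 2 with no filter, where CBF3 was tested, and 1 to 2 when a library was left out; 5 to 6 were then called higher. Over those fits 5134 to 5536 genes were higher and 4456 to 4930 lower. Leaving out libraries, the COR15A/COR15B shift ran from 0.44 to 0.79 and the COR47/ERD10 shift from -0.35 to -0.23, while that of KIN1/KIN2 ran from -0.33 to 0.59. The last was -0.93 with a pseudocount of 10 and -0.998 with deposited TPM plus 1. These additions are large beside KIN1, which had 2 to 32 counts in a library. Its mean TPM was 1.96 under water and 0.369 in air. How much of the change the additions make was not tested.

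With the replicate block 5470 genes were higher and 4877 lower, and no call of a member changed. Same-numbered libraries did not deviate together (correlations -0.04, 0.04 and 0.04), so no effect tied to the numbers was visible. With 3 libraries per group this cannot tell whether the samples were paired, since a weak shared effect would look the same. Few reads limit CBF3, KIN1, CBF1 and DDF1.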
